A study of Mus musculus with 8 samples.

Results

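Death receptor signalling decides whether a cell that senses TNF or a related ligand survives or dies, and the 10 genes described here encode its central switches and the survival proteins around them. They are Cflar, Casp8 and Fadd of the caspase-8 branch, the RIP kinase genes Ripk1 and Ripk3, the caspase inhibitor gene Xiap, and Mcl1, Bcl2, Bcl2l1 and Bcl2l11 of the BCL2 family. They were named by pathway and found as the rows of the deposited table whose probe set number equals the Entrez gene number of the gene. All 10 had a row, of 24570 genes tested. The genes were chosen by name and role, with the hepcidin minus PBS differences of these same arrays already known, so the changes given for them are a description and support nothing further.

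The arrays hold RNA of primary mouse macrophages grown from the marrow of wild-type mice aged 8 to 10 weeks, with no strain, transgene or deletion named in the labels used here. Marrow cells grew for 7 days in medium with 20% serum and 30% L cell-conditioned medium, which supplies the macrophage growth factor M-CSF along with whatever else those fibroblasts secrete. They were replated at 150000 cells per well with 15% conditioned medium and 10% serum and exposed the next day. The hepcidin group (4 arrays) received hepcidin, a hormone peptide whose receptor is the iron exporter ferroportin, at 10 µg/ml for 1 h, and the PBS group (4 arrays) received PBS, for which no separate time is given. Titles number the arrays of each group 1 to 4, the labels do not say whether a number is an animal or a culture, and any p-value therefore reflects only how these samples scatter, which may be technical in origin.

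When TNF or Fas ligand engages its receptor, the adaptor FADD brings in caspase-8, which starts apoptosis. The protein made from Cflar, cFLIP, resembles caspase-8 without its protease activity and pairs with it to hold that start back. If caspase-8 is blocked, the kinases RIPK1 and RIPK3 can instead drive necroptosis, a lytic form of death to which macrophages are prone. Further down, MCL1, BCL2 and BCL-XL (from Bcl2l1) keep mitochondria closed, BIM (from Bcl2l11) opposes them, and XIAP binds and inhibits active caspases. NF-kB, which TNF also switches on, is known to raise several of the survival genes, Cflar among them.

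Start regions are shown for the 3 genes whose difference had the same sign in all 4 pairs of arrays (Cflar, Mcl1 and Ripk1) and for Bcl2l1. RefSeq gives such a window, from 250 bases before to 50 bases after a start site, for all 10 genes and 16 windows in all (build GRCm38.p6). Cflar and Mcl1 each have 1 window, at chr1:58711241-58711540 and chr3:95658471-95658770, both on the plus strand. The second Ripk1 window lies at chr13:34002624-34002923 on the plus strand, and the second Bcl2l1 window, shown because it alone held an NF-kB match, at chr2:152830668-152830967 on the minus strand. The sequences read 5′ to 3′ along the gene, with motif matches in capitals.
Cflar: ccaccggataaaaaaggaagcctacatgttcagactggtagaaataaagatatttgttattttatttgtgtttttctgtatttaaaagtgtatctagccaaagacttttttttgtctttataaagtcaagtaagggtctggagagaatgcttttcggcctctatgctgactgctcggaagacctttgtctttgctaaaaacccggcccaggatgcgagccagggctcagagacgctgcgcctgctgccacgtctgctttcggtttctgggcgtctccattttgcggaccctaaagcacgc
Mcl1: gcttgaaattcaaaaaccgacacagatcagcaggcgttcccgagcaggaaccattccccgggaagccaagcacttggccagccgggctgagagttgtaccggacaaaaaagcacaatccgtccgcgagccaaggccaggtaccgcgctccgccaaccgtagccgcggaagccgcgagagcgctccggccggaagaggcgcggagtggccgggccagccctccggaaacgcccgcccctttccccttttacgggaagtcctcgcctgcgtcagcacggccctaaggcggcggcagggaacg
Ripk1: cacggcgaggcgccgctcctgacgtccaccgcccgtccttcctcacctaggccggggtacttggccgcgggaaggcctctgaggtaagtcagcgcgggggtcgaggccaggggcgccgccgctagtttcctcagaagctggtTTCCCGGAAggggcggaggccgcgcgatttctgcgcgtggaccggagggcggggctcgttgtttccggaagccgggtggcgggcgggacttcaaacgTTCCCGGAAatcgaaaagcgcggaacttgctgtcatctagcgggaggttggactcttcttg
Bcl2l1: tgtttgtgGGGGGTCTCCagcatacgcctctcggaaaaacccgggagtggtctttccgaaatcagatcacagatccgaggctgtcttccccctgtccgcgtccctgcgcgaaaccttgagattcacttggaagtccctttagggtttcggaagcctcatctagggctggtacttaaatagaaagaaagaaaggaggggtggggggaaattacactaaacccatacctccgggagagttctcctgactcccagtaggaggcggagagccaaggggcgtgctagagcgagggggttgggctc

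Each window was searched on both strands for the NF-kB consensus, for the AP-1 motif TGANTCA and for the STAT motif TTCNNNGAA. The Cflar and Mcl1 windows held none of them, so they stand in lower case throughout. That says only that these letters are not in these 300 bases. The Bcl2l1 window held GGGGGTCTCC starting 242 bases before the start site, an NF-kB match, and 1 of the 16 windows had such a match against 4.51% of all 32851 windows. The Ripk1 window held TTCCCGGAA at 108 and again at 11 bases before the start site, and it was the 1 window of 16 with a STAT match, against 8.3% of all windows. No window of the 10 genes held TGANTCA, against 7.81% of all, and no match overlapped another motif. The base composition of the windows differed widely, from 37.7% G and C in the third window of Xiap to 76% for Bcl2, with 45% for Cflar, 65.7% for Mcl1 and a median of 52.7% over all windows.

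The cells carried the markers of their label. Of 8 macrophage markers 7 were measured, with mean log2 levels from 8.34 for Mertk to 13.1 for Cd68. Of 12 markers of endothelium, B cells and T or NK cells, taken as a measure of background, the median level was 3.84 and 11 lay at or below 5.54, with Kdr the exception at 7.51. Dendritic cell markers (5) lay between 4.21 and 4.95, stromal markers (4) between 4.38 and 5.74, and erythroid markers (2 of 3 measured) between 2.91 and 4.22. Both arrays numbered 1 stood apart from the other 6. Their mean over the macrophage markers was 10.8 with PBS and 10.9 with hepcidin, against 11.3 to 11.4 on the others. Csf1r, Itgam, Cd14, Mertk and Fcgr1 were lower on both than on the other 6, Fcgr1 most (8.84 and 9.19, against 10.5 to 11.4). Cd68 and Adgre1 were not. Their mean over 8 neutrophil and precursor markers was 4.49 and 4.32, against 5.49 to 5.96. By gene, these markers lay between 3.52 for Camp and 7.06 for Ngp. Ngp read 4.62 and 4.54 on the arrays numbered 1, against 7.38 to 8.20 on the others. S100a8, S100a9, Elane, Mpo and Ltf were also lower there, while Ly6g and Camp were low on all arrays (3.27 to 4.50). In a bulk sample, fewer cells of a type and less RNA per cell cannot be told apart.

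All 10 genes were expressed at rest above most background markers. Their mean log2 levels with PBS ran from 7.54 for Fadd to 11.7 for Casp8, all above the 11 background markers just named. The exception among those markers, Kdr, lay at 7.53 with PBS, level with Fadd. Since each probe set responds differently to its RNA, these levels do not rank the genes against each other.

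**Figure D1:**
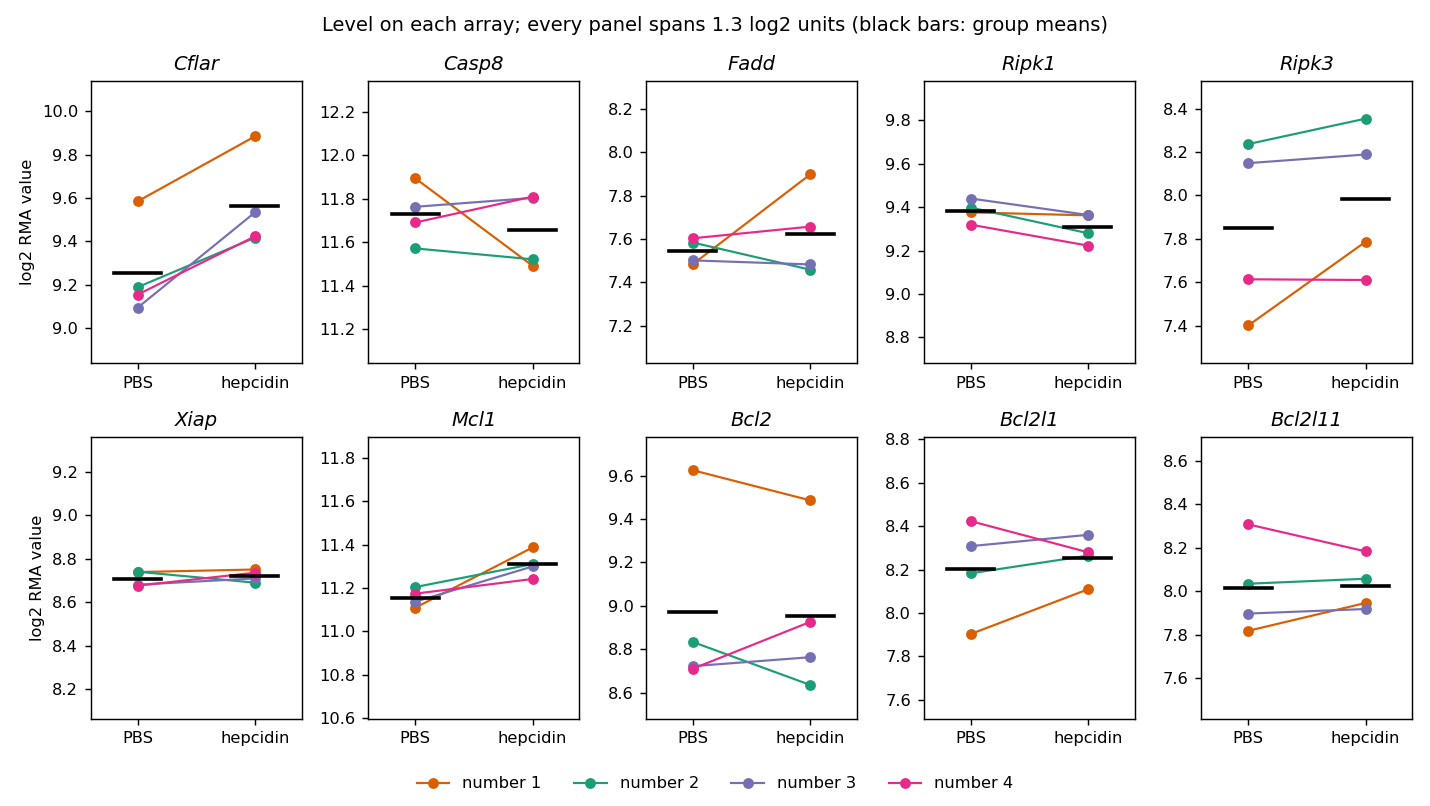
Log2 RMA value of each of the 10 genes (vertical axes, each spanning 1.3 log2 units) on the 4 PBS and 4 hepcidin arrays; lines join arrays with the same number and black bars are group means. Cflar and Mcl1 are higher at the hepcidin end of all 4 lines, Xiap lies nearly flat, and Bcl2 sits about 9.5 to 9.6 on both arrays numbered 1 and below 9 on the others.

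Cflar had the largest difference among the 10 genes. Its log2 level was 9.58, 9.19, 9.09 and 9.15 on PBS arrays 1 to 4 and 9.88, 9.42, 9.53 and 9.42 on hepcidin arrays 1 to 4. Hepcidin was the higher in all 4 pairs, by 0.30, 0.23, 0.44 and 0.27. The groups overlapped, because the PBS array numbered 1 was higher than the hepcidin arrays of the other numbers. Among numbers 2 to 4 they did not, with 9.09 to 9.19 under PBS and 9.42 to 9.53 under hepcidin, a separation that 3.67% of all genes had with hepcidin higher and 3.62% with it lower. The mean difference was 0.31 ± 0.14 (log2, hepcidin minus PBS; n = 4 in each group), a ratio of 1.24. Here and below, ± is the SE from limma without the pairing, as is the 95% interval unless the block is named. For Cflar that interval was 0.00062 to 0.62, and it was 0.14 to 0.48 with the number as a block. The mean difference was 0.20 without the hepcidin array numbered 1, 0.42 without the PBS array numbered 1 and 0.31 without both.

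Casp8, the initiator caspase gene that cFLIP restrains, showed no common direction. It read 11.89, 11.57, 11.76 and 11.69 with PBS and 11.49, 11.52, 11.80 and 11.81 with hepcidin. The pair differences were -0.40, -0.05, 0.04 and 0.12. The array numbered 1 was thus the highest of the PBS group and the lowest of the hepcidin group. On average Casp8 differed by -0.07 ± 0.11 (± SE), with a 95% interval of -0.31 to 0.17, and it was 0.04 without both arrays numbered 1.

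Fadd, the adaptor gene, behaved in the opposite way in pair 1. Its levels were 7.48, 7.58, 7.50 and 7.60 with PBS and 7.90, 7.46, 7.48 and 7.66 with hepcidin, so that the hepcidin array numbered 1 lay above all others and the other 3 spread on both sides of the PBS range. The pair differences were 0.41, -0.13, -0.02 and 0.05. The mean difference of 0.08 ± 0.11 became -0.03 without both arrays numbered 1. Its 95% interval was -0.15 to 0.32, and -0.15 to 0.31 with the number as a block.

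Ripk1, whose product is both a scaffold for survival signals and a kinase for death, was slightly lower with hepcidin in all 4 pairs. PBS arrays read 9.38, 9.40, 9.44 and 9.32, and hepcidin arrays 9.36, 9.28, 9.36 and 9.22. The pair differences were -0.01, -0.12, -0.08 and -0.10, and the groups overlapped. The mean difference was -0.08 ± 0.07, with a 95% interval of -0.24 to 0.09 and of -0.23 to 0.08 with the number as a block.

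Ripk3, the kinase gene of necroptosis, differed more between numbers than between treatments. It stood at 7.40, 8.24, 8.15 and 7.61 with PBS and at 7.79, 8.35, 8.19 and 7.61 with hepcidin, so numbers 2 and 3 were high and numbers 1 and 4 low in both groups. The pair differences were 0.39, 0.12, 0.04 and -0.0033. Averaged over the arrays Ripk3 differed by 0.13 ± 0.22, with a 95% interval of -0.35 to 0.62 and of -0.07 to 0.34 with the number as a block.

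Xiap was the most even of the 10 genes. It lay between 8.68 and 8.74 with PBS and between 8.69 and 8.75 with hepcidin, a range of 0.07 over the 8 arrays. Of 9570 genes whose mean level reached 6, as that of all 10 genes did, the range was as small or smaller in 8 (0.0836%, Xiap included), and their median range was 0.45. Hepcidin and PBS differed by 0.01 ± 0.07, with a 95% interval of -0.14 to 0.16.

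Mcl1, a short-lived survival protein of the BCL2 family that myeloid cells depend on, was the 1 gene of the 10 whose groups did not overlap. It read 11.11, 11.20, 11.14 and 11.17 with PBS and 11.39, 11.31, 11.30 and 11.24 with hepcidin, so the lowest hepcidin array stood just above the highest PBS array. The pair differences were 0.28, 0.11, 0.16 and 0.07. The mean difference was 0.15 ± 0.07, a ratio of 1.11, with a 95% interval of -0.01 to 0.31, and it was 0.11 without both arrays numbered 1. Over all genes, 0.838% had groups that did not overlap with hepcidin higher and 1.03% with hepcidin lower, and the first share was 0.585% among genes whose mean level reached 6.

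Bcl2, the founding survival gene of the family, was higher on both arrays numbered 1 than on any other. It read 9.62, 8.83, 8.72 and 8.71 with PBS and 9.49, 8.64, 8.76 and 8.93 with hepcidin. Both arrays numbered 1 lay well above the other 6, by 0.87 with PBS and 0.71 with hepcidin over the mean of their group's other 3 arrays. Such a position was common on these arrays, since 9.81% of all genes had both arrays numbered 1 above the other 6 and 10.2% had both below, with 14.9% above among genes whose mean level reached 6. The lower mean macrophage and neutrophil marker levels of the same arrays, which not every marker shared, were given above. Their part in the Bcl2 level was not tested. The mean difference with hepcidin was -0.02 ± 0.23, with a 95% interval of -0.54 to 0.50 and of -0.23 to 0.19 with the number as a block.

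Bcl2l1, which encodes BCL-XL, leaned the other way by number. Its levels were 7.90, 8.18, 8.31 and 8.42 with PBS and 8.11, 8.26, 8.36 and 8.28 with hepcidin, and both arrays numbered 1 lay below the other 6. The pair differences were 0.21, 0.08, 0.05 and -0.14, so the 4 hepcidin arrays fell inside the PBS range. The mean difference was 0.05 ± 0.12, with a 95% interval of -0.21 to 0.31 and of -0.14 to 0.24 with the number as a block.

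Bcl2l11, the gene of the death-promoting member BIM, read 7.82, 8.03, 7.90 and 8.31 with PBS and 7.95, 8.06, 7.92 and 8.18 with hepcidin. Number 4 was the highest in both groups, and the hepcidin arrays again lay inside the PBS range. The pair differences were 0.13, 0.02, 0.02 and -0.12. The mean difference was 0.01 ± 0.12, with a 95% interval of -0.25 to 0.27 and of -0.16 to 0.18 with the number as a block.

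Without both arrays numbered 1, the mean differences of the 6 genes not yet given this way were -0.10 for Ripk1, 0.05 for Ripk3, 0.01 for Xiap, 0.02 for Bcl2, -0.0033 for Bcl2l1 and -0.03 for Bcl2l11.

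**Figure D2:**
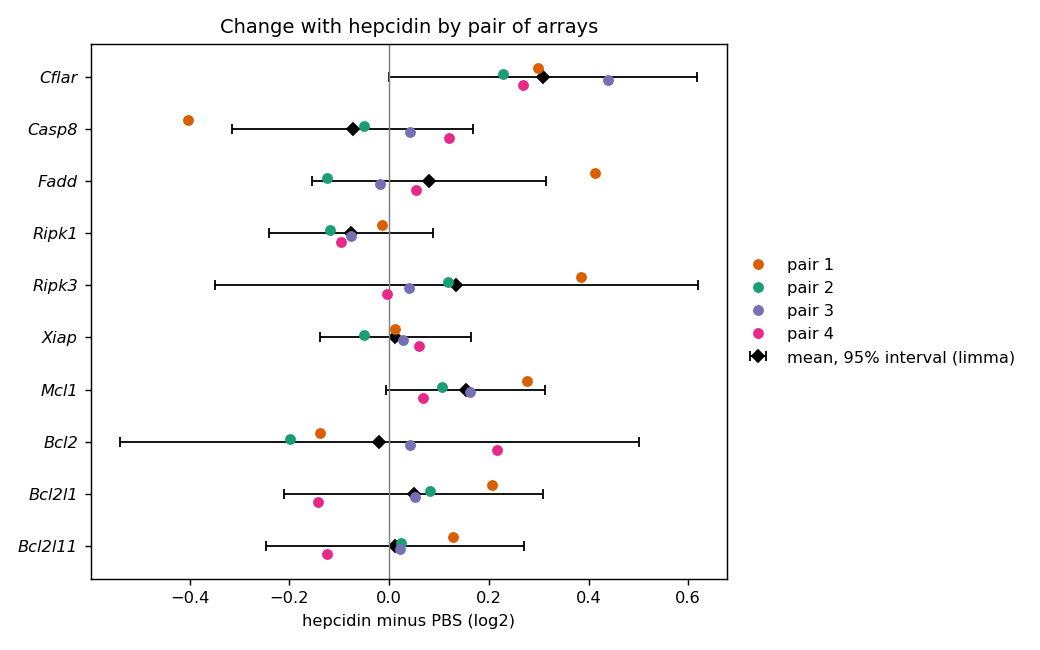
Difference of hepcidin minus PBS on the log2 scale (horizontal axis) for each gene: coloured points are the 4 pairs of arrays with the same number, and black diamonds with bars are the mean and its 95% interval from limma without the pairing. The points of Cflar (0.23 to 0.44) and Mcl1 (0.07 to 0.28) all lie right of 0 and those of Ripk1 (-0.12 to -0.01) all left of it, while the other 7 genes have points on both sides.

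The contrast of hepcidin with PBS asked which genes these macrophages change within 1 h. In limma without the pairing, 0 of the 10 genes passed an adjusted p of 0.05 in either direction, as did 0% of all 24570 genes. At an unadjusted p under 0.05 there was 1 of the 10, Cflar, against 2.83% of all genes, of which 1.32% were higher and 1.51% lower with hepcidin. With the number of the array as a block, again 0 of the 10 passed, against 0.00407% of all genes, and Cflar was again the 1 member at an unadjusted p under 0.05, against 4.9% of all genes. Its unadjusted p in limma was 0.0496 without the pairing, just under that bound, and 0.000921 to 0.141 in the other settings. The adjusted p of Cflar in limma was 0.787 with the block and 1.00 without it. In the settings tried it was lowest, at 0.314, when the block was joined with a filter at a mean level of 6, a setting chosen after seeing the data.

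Of the 10 genes 2 were higher in all 4 pairs (Cflar and Mcl1) against 5.69% of all genes, 1 was lower in all 4 (Ripk1) against 5.92%, and 7 were mixed. Among genes whose mean level reached 6 the shares were 6.39% and 4.8%. The median change of the 10 genes was 0.03, with 7 above 0, and the median of all genes was 0.0011. By pair the median of the 10 was 0.17, -0.01, 0.04 and 0.06, so pair 1 stood highest. In 6 of the 10 genes the pair difference of greatest size was that of pair 1, against 35.5% of all genes and 44.8% of those whose mean level reached 6.

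**Figure D3:**
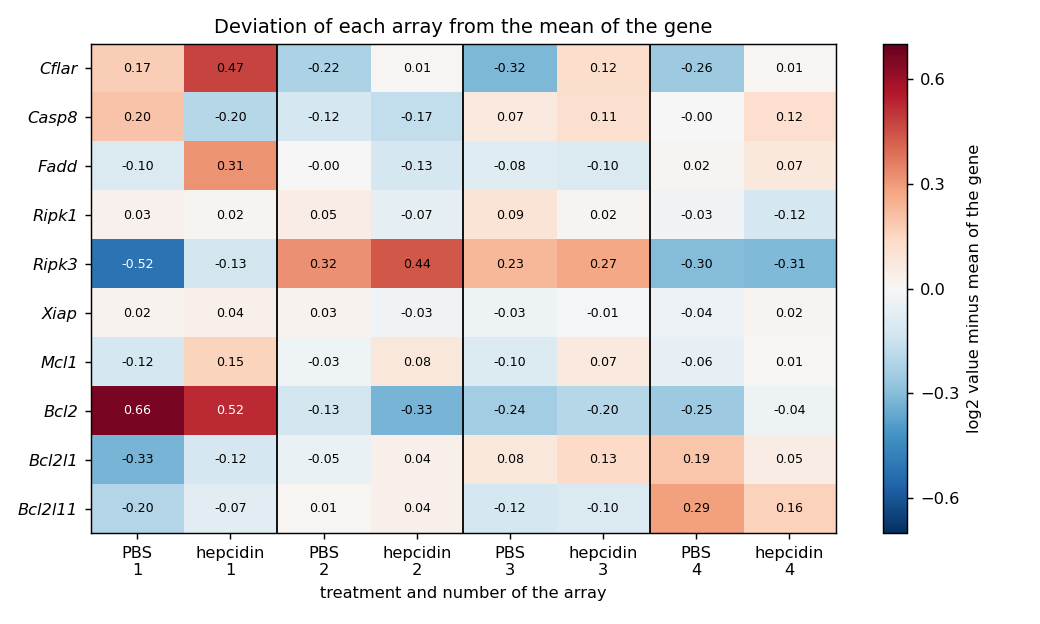
Log2 value of each gene on each array minus the mean of that gene over the 8 arrays (colour and printed value), with arrays ordered by number and treatment. Bcl2 is 0.66 and 0.52 above its mean on the arrays numbered 1, Ripk3 is high on numbers 2 and 3, and Xiap stays within 0.04 of its mean throughout.

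Bcl2 and Ripk3 had the largest ranges over the 8 arrays, 0.99 and 0.95. Of the 9570 genes whose mean level reached 6, 7.07% ranged as widely as Bcl2 and 8.12% as widely as Ripk3. By the root mean square distance of centred values over the 8 arrays, the genes nearest to Bcl2 were Rai14 and Ticam2 (0.08 each), and those nearest to Ripk3 were Spc24 (0.07) and Iqgap3 (0.08).

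Around the 10 genes, 46 of 47 other genes of the pathway were measured, and 0 of them passed an adjusted p of 0.05 in limma without a block or with the number as a fixed block. With the number as a random block 1 passed, Tnf. At an unadjusted p under 0.05 without a block there were 3, all higher, against 1.32% of all genes higher and 1.51% lower. Of the 46, 5 were higher in all 4 pairs (Tnf, Tnfrsf21, Traf1, Birc3 and Tnfaip3), against 5.69% of all genes, and 2 lower (Casp6 and Bik), against 5.92%. The median change of the 46 was 0.02, and the mean level of 36 of them reached 6.

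Among 9 death ligands and receptors, the largest change was that of Tnf, the ligand itself. Tnf read 10.49, 10.36, 10.08 and 10.62 with PBS and 11.60, 11.37, 11.86 and 11.85 with hepcidin, and the groups lay far apart. Its pair differences were 1.11, 1.01, 1.77 and 1.23, with an adjusted p of 0.0784 in limma without a block and 0.108 with the fixed block. It passed with the random block (0.0173), with the fixed block joined with the filter at a mean of 6 (0.0135) and without the hepcidin array numbered 2 (0.0495). Tnfrsf10b, a receptor for the ligand TRAIL, differed by 0.23 ± 0.15, with 3 of 4 pairs higher. Its 95% interval was -0.11 to 0.57, and 0.02 to 0.44 with the number as a block. The median of the list was 0.11, the change of Tnfsf10, and in limma without a block 0 of its genes passed. Tnfsf10, Tnfrsf25 and Fasl lay at 4.89, 4.43 and 3.25 with PBS. These levels were all under 5.54, the highest of the background markers other than Kdr.

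Among 13 adaptors and ubiquitin regulators, the largest differences were those of Tnfaip3, Birc3 and Traf1. Tnfaip3 encodes A20, which trims ubiquitin chains on RIPK1, and it read 8.72, 8.44, 7.93 and 8.69 with PBS and 9.37, 8.93, 8.90 and 9.44 with hepcidin. The groups did not overlap, and the difference was 0.72 ± 0.19, with an adjusted p in limma of 1.00 without a block, 0.219 with the fixed block and 0.0281 with that block and the filter at a mean of 6. Birc3 encodes cIAP2, a ligase that adds such chains, and differed by 0.34 ± 0.12, with 0.10, 0.27, 0.52 and 0.47 in pairs 1 to 4. Its 95% interval was 0.08 to 0.60, and 0.13 to 0.55 with the number as a block. Traf1, which encodes an adaptor of TNF family receptors, differed by 0.31 ± 0.19. The 95% interval of Traf1 was -0.12 to 0.74, and 0.09 to 0.53 with the number as a block. The remaining genes of the list ran down to -0.0011, the list median was 0.03, and in limma without a block 0 genes passed.

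The executioner end of the pathway gave smaller values. Among 8 effector caspase and mitochondrial release genes, changes ran from -0.19 for Cycs, the cytochrome c gene, to 0.12 for Diablo, which encodes an antagonist of XIAP, and the median was -0.0036. The Cycs probe set lay at 4.22 with PBS, within the range of the background markers. Among 3 necroptosis genes, Mlkl, the pore-forming effector below RIPK3, differed by -0.05 ± 0.12, and Zbp1, a sensor that can engage RIPK3, by -0.13 ± 0.40. Of 14 further BCL2 family genes 13 were measured, with a median of 0.0050 and values from -0.10 for Bik to 0.15 for Pmaip1, the gene of the death-promoting protein NOXA. Bax, which opens mitochondria, differed by 0.14 ± 0.11. None of these 24 genes passed in limma in any setting that tested it. The filter at a mean level of 6 left out Cycs, so that gene was not tested there. Without a block 0 of the 24 had an unadjusted p under 0.05.

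**Figure D4:**
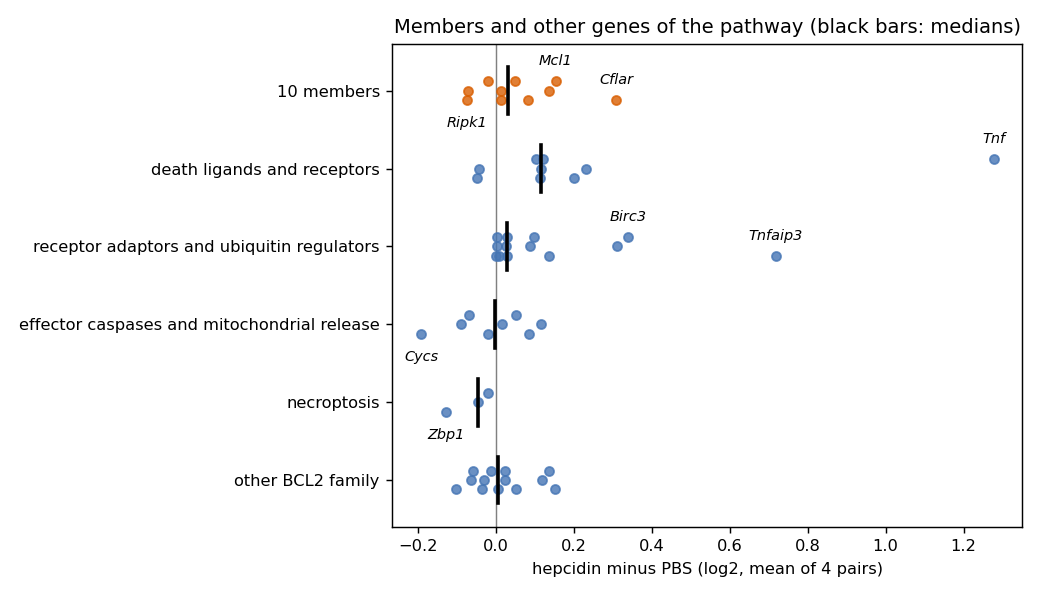
Mean difference of hepcidin minus PBS on the log2 scale (horizontal axis) for the 10 genes (orange) and for 46 other genes of the pathway in 5 lists (blue), with black bars at the medians. Tnf (1.28) and Tnfaip3 (0.72) lie far to the right. Birc3 (0.34), Traf1 (0.31, not labelled) and Cflar (0.31) lie at the upper end of the rest. Most points lie within 0.2 of 0.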

How the data were processed

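RNA of the 8 samples was labelled with biotin for Affymetrix whole-transcript arrays, per the labels' protocols. The authors deposited log2 values, from 1.73 to 13.6; the submitters' processing notes name RMA and the package affy (1.36.1). The build and the probe set definition are not given in the sources used.

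Of 24973 probe sets, 24015 had 1 symbol in the platform annotation, 0 had several, and all of these were numbered by Entrez gene. A further 559, Ripk1 among them, were named by that number through a RefSeq table (GRCm38.p6), and 399 stayed unnamed. For 4 repeated symbols the brightest probe set was kept, which left 24570 genes.

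Hepcidin was compared with PBS over all genes with limma 3.58.1 (lmFit, eBayes) in R 4.3.3, with Benjamini-Hochberg adjustment at 0.05, and tested on simulated data. SEs and 95% intervals come from this fit. Deviations from group means correlated at 0.345 to 0.551 between arrays of the same number and at -0.356 to 0.125 between others. The same-number values all passed the bound of 0.1, as did the highest of the others. Each also lay above every value between unlike numbers, so the numbers were taken to pair the arrays. The pairing comes from the titles and this check. Array medians were 4.87 to 4.95 and correlations between arrays 0.989 to 0.996. The number of arrays limits the precision.

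The 10 members and the lists were chosen with earlier results of these data known. Named genes are the 10 members, Tnf, those past the threshold or else the 2 with the smallest unadjusted p in each pathway list, and the 2 genes nearest in pattern to the 2 members of largest range. Other genes named beside a count were chosen after their values were seen. Other settings were a fixed or random block, 3 normalizations, a filter at a mean of 6, trend and robust variance, all probe sets, and arrays left out. Chosen after seeing the data were platform-named genes alone and the block joined with the filter. Start regions were searched with Python 3.11.15.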

Additional observations from a re-analysis of the deposited data

Results flagged for a closer look

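The level of Bcl2 on the PBS array numbered 1, 9.62 on the log2 scale, stood far above the other 3 PBS arrays for the size of the group's range (8.71 to 8.83). It was the 1 such array among the 20 groups of 4 examined for the 10 genes, and chance gives about 1 in 20. The hepcidin array numbered 1 was high as well, at 9.49.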

How the results depend on the processing

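In all 20 settings 0 of the 10 genes passed an adjusted p of 0.05, and the changes of Cflar, Mcl1, Ripk1 and Xiap kept their direction in each setting that gave them a value. Cflar ran from 0.20 to 0.42 and Mcl1 from 0.11 to 0.18. The count over all genes, 0 without the pairing, was 1 with the replicate block, 5 with a random replicate block, 1 with the replicate block without both arrays numbered 1, and 6 with the block and a mean of at least 6. With an array dropped it was 0 to 2, the 2 without the hepcidin array numbered 2, and 0 in the other settings. The replicate block changed no call among the 10 genes. Of the other pathway genes, Tnf passed with the random block, without the hepcidin array numbered 2 and with the block and filter, and Tnfaip3 in the last. The median change of the 10 genes ran from 0.0038 without the PBS array numbered 1 to 0.08 without the PBS array numbered 4.

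The change turned sign in 21 of 199 values. These included Ripk3, at 0.13, which was -0.015 without the PBS array numbered 1. Bcl2l11, at 0.012, was -0.0082 with quantile normalization and -0.0016 with cyclic loess. Without both arrays numbered 1, with and without the replicate block, Casp8 was 0.037, Fadd -0.030, Bcl2 0.020, Bcl2l1 -0.0033 and Bcl2l11 -0.027. With single arrays left out, Bcl2 ran from -0.20 to 0.20, Ripk3 from -0.015 to 0.26, Fadd from -0.010 to 0.14, Bcl2l1 from -0.051 to 0.12 and Bcl2l11 from -0.054 to 0.11. Leaving out 1 array leaves its same-numbered partner unmatched. With 4 arrays a group, the 95% intervals of the 10 genes reached 0.16 to 0.62 on the log2 scale at their far ends without the block and 0.17 to 0.48 with it.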
